A study of Mus musculus with 8 samples.

Results

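Respiratory chain assembly factors are proteins that help to build complexes I to V of the mitochondrial inner membrane without being part of the finished enzyme. A list of 46 such genes was taken by name from the 50599 gene records measured in mouse heart, with 14 genes for complex I, 4 for complex II, 6 for complex III, 19 for complex IV and 3 for complex V. All 46 symbols matched 1 record each, and all 46 received an adjusted p value. Total RNA of whole hearts was sequenced from 4 mice labelled wildtype and 4 labelled Lrpprc knockout, all male, of strain C57BL/6N and 12 weeks old. Where it describes the footprinting, the study gives the controls as Lrpprc loxP/loxP and the knockouts as Lrpprc loxP/loxP,Cre+. Its methods describe a knockout specific to heart and skeletal muscle and call the sequenced hearts control and Lrpprc knockout. The methods do not name the promoter that drives Cre, and cell types of the heart that lack Cre keep the gene.

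Complexes I, III, IV and V combine subunits made from mitochondrial DNA with subunits encoded in the nucleus, whereas complex II is wholly nuclear. Assembly factors insert cofactors such as copper, heme and iron-sulfur clusters, hold subunits until their partners arrive and move parts across the inner membrane. They are all nuclear genes, and LRPPRC, an RNA-binding protein of the mitochondrial matrix, acts on mRNAs made from mitochondrial DNA. The comparison asked how the transcripts of these nuclear helpers differed when Lrpprc was removed.

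Libraries held between 35218541 and 47743376 expected counts. Mitochondrial rRNA took 44.0 to 46.9% of these in the wildtype and 65.6 to 67.8% in the knockout. Lrpprc itself had 3424 to 3946 normalised counts in the wildtype and 504 to 605 in the knockout, a log2 fold change of -2.67 ± 0.10 (SE, adjusted p = 3.77e-153 in DESeq2). Cardiomyocyte markers were abundant in every library, and 5 of 6 were lower in the knockout, with summed counts of 900189 to 1005677 against 416539 to 542957. Fibroblast markers were higher for 3 of 6 genes (17177 to 17913 against 16246 to 53538) and macrophage markers for 4 of 6 (2193 to 2827 against 2297 to 5727). Atrial markers were lower for 2 of 4 (9980 to 12038 against 1268 to 6012), and smooth muscle markers for 1 of 3 (3216 to 4033 against 976 to 2541). None of the 5 endothelial, 3 erythroid and 3 adipocyte markers passed the test. Knockout replicate 3 was at the edge of the knockout range in all 8 lists, with the highest sums of the cardiomyocyte and erythroid markers among the knockouts and the lowest of the other 6. In whole hearts fewer cells of a type and less RNA per cell cannot be told apart, and the part of tissue composition in the results on assembly factors was not tested.

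Of the 46 assembly factors, 16 passed an adjusted p of 0.05, 12 lower and 4 higher in the knockout. The split depends on the scale, with 32 lower and 1 higher when libraries were scaled by total counts and 1 lower and 19 higher when mitochondrial rRNA was taken out of the totals, a class that took a larger share of the knockout libraries. The totals without mitochondrial rRNA still held the mitochondrial mRNAs. The study reports that, apart from mt-Nd6, these mRNAs were less stable after loss of LRPPRC. Over all records 29.6% were lower and 9.64% higher by total counts, and 5.43% were lower and 38.9% higher without mitochondrial rRNA in the totals. By the size factors used here 26.09% of the members were lower and 8.696% higher, where 15.5% of the 19959 records tested were lower and 18.2% higher. The surplus of lower members was lost when any of wildtype replicates 1 to 4 or knockout replicate 2 or 4 was left out, since 10.9 to 13% of the members and 13.2 to 14.7% of all records were then lower. In both directions together 34.78% of the members were called, against 33.7% of all records. The median log2 fold change of the members was -0.17, and that of all records tested was 0.01. Counts of the wildtype and the knockout did not overlap for 14 members, 10 lower and 4 higher, which is 30.43% of the list against 33% of all records.

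By complex, the calls fell as follows, where 15.5% of all records tested were lower and 18.2% higher. Of the complex I factors 6 of 14 were lower and 0 higher, with a median log2 fold change of -0.23. Of the complex II factors 1 of 4 was lower, with a median of -0.26. Complex III had 3 of 6 lower and 1 higher, with the lowest median, -0.46. Complex IV had 3 of 19 higher and 2 lower, with a median of 0.07, or 0.03 without Pet117. Without the correction for transcript length the balance of complex IV turned to 2 higher (Cox18 and Cox19) and 5 lower (Cox15, Cox16, Coa7, Cox20 and Taco1), and that of all members was 3 higher and 17 lower, where 19.8% of all records were higher and 17.3% lower. Scaled by total counts, complex I had 11 lower and 0 higher and complex IV 9 lower and 1 higher. In that fit 29.6% of all records were lower and 9.64% higher. By total counts less mitochondrial rRNA complex I had 1 lower and 4 higher and complex IV 0 lower and 13 higher. Of all records 5.43% were then lower and 38.9% higher. Leaving out 1 library gave 2 to 7 lower complex I factors. It left 2 without wildtype replicate 2 or 4 or knockout replicate 4, where 13.7, 13.6 and 14.7% of all records were lower. It left 3 without wildtype replicate 1 or 3 or knockout replicate 2, where 13.2, 14 and 14.3% of all records were lower. With 2 of 14 left, the complex I share was near that of all records. In complex IV leaving out 1 library gave 0 to 1 lower and 2 to 3 higher. Of all records 13.2 to 17.2% were then lower and 15.7 to 19.4% higher. The complex IV median was 0.01 without knockout replicate 1 and 0.02 without wildtype replicate 2. None of the 3 complex V factors passed the test, and their median was -0.17. These medians are descriptions and were not tested against each other. Scaling by total counts moved the median of all records to -0.30 and that of complex IV to -0.22, and scaling by total counts without mitochondrial rRNA moved it to 0.43, where the medians of complexes I, II and V turned to 0.19, 0.17 and 0.25. Relative to the median gene the complex I median was -0.24, -0.23 and -0.24 under the 3 scalings and the complex III median -0.47, -0.46 and -0.47. A change of scale moves all genes by nearly the same amount, so these values stay alike by construction.

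**Figure D1:**
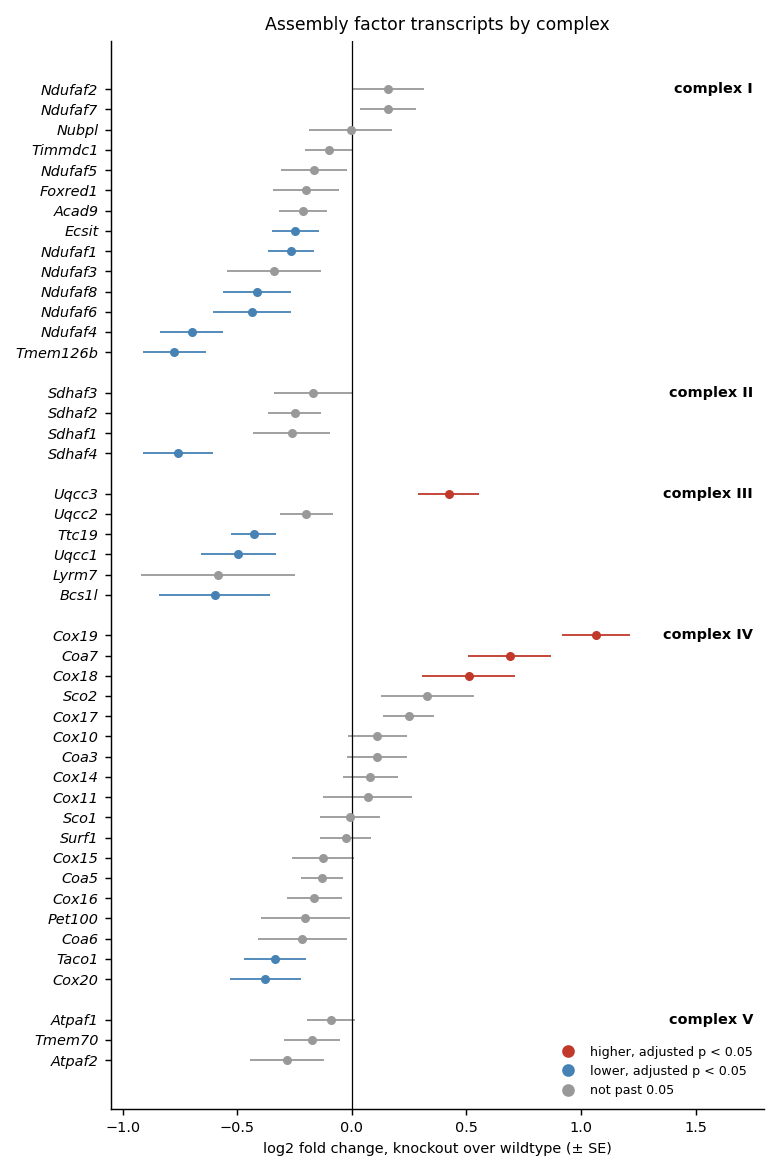
Log2 fold change of each assembly factor, knockout over wildtype (x axis), with the standard error from DESeq2 as a bar and 1 row per gene, ordered within each complex. Blue and red points are members lower and higher past an adjusted p of 0.05, and grey points are not past it. On this scale points of complexes I to III lie mostly left of 0, those of complex IV lie on both sides and Cox19 lies farthest right. Pet117 is left out because 6 of its 8 libraries held no count.

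Upstream sequence is shown for the member with the largest rise, the member with the largest fall and 4 of the 8 called members whose 250 bases before the RefSeq gene start held a searched motif. These 4 were chosen after the matches were seen, and the other 4, Bcs1l, Ndufaf8 and Cox20 with the ETS letters and Coa7 with the CRE letters, are not printed. Each is printed 5′ to 3′ on the gene's strand, from the RefSeq table for GRCm38.p6, and was shortened to the stretch that no GENCODE exon covers. Capitals mark a motif match. The Cox19 stretch precedes the RefSeq start but lies inside the span GENCODE gives the gene, which has a further transcript that starts farther upstream.
Cox19, chr5:139345234-139345416, minus strand: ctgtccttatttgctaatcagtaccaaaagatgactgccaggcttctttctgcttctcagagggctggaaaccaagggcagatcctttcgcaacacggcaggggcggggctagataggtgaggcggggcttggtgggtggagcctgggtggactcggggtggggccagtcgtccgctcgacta
Tmem126b, chr7:90476002-90476245, minus strand: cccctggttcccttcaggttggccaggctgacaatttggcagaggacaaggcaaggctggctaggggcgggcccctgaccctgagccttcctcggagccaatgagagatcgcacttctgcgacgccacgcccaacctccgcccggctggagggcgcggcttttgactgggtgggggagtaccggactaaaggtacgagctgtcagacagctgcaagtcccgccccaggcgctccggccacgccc
Ndufaf4, chr4:24897833-24898082, plus strand: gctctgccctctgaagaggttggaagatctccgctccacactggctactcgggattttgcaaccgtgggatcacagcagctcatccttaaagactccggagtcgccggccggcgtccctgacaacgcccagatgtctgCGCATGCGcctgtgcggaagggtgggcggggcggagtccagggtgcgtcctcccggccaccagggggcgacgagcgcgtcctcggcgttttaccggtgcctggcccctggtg
Ttc19, chr11:62281376-62281472, plus strand: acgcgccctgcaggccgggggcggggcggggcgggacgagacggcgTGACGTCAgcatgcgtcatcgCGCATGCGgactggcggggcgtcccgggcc
Ndufaf1, chr2:119662835-119663084, minus strand: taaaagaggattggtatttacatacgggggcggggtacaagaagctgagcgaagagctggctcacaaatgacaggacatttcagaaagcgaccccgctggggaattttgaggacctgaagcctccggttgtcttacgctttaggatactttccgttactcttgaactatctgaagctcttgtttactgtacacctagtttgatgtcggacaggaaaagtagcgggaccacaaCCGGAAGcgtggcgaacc
Uqcc3, chr19:8880934-8881183, minus strand: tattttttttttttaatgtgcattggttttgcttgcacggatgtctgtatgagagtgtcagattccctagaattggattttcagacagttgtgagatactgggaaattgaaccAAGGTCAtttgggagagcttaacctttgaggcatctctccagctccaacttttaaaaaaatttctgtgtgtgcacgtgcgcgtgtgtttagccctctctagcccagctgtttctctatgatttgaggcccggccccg

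The table held an upstream sequence for 40 of the 46 members, and 6 motifs were searched on both strands. The ETS letters CCGGAAG stood in 11 of 40 members (27.5%), among them Ndufaf1, and in 13.9% of 11784 tested protein-coding genes and 7.8% of all 27025 genes of the table. The NRF1 letters CGCATGCG, from the half-sites of a factor known for driving nuclear respiratory genes, stood in Ndufaf4 and Ttc19, 5.0% of members and 3.2% of tested coding genes. The CRE letters TGACGTCA stood in Nubpl, Ttc19, Coa7 and Pet100, 10.0% against 2.8%, and this motif was added after the sequences were seen. The ERR letters AAGGTCA stood in Uqcc3 alone, 2.5% against 3.6%. The ATF4 composite letters TGATGNAAN and the YY1 letters AAGATGGCG were found in 0 of 40 members and in 2.5% and 1.2% of tested coding genes. A match describes letters in this window and no occupied site. The ETS letters stood in 4 of the 11 lower members with a sequence and in 0 of the 3 higher ones.

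The largest falls among the complex I factors were those of Tmem126b and Ndufaf4. Tmem126b (ENSMUSG00000030614.8, chromosome 7 from 90467438 to 90476001, minus strand) encodes a membrane protein of the intermediate assembly complex that builds the membrane arm. Its normalised counts were 461, 520, 524 and 498 in the wildtype (replicates 1 to 4) and 338, 326, 255 and 253 in the knockout. The groups did not overlap, and knockout replicates 3 and 4 were the lowest. The log2 fold change came to -0.77 ± 0.14 (SE, adjusted p = 2.72e-07 in DESeq2). Ndufaf4 (chromosome 4 from 24898083 to 24905001, plus strand) encodes a factor that joins the arm facing the matrix. Its counts were 936, 899, 1065 and 1015 in the wildtype and 717, 645, 502 and 549 in the knockout. Every knockout library lay below every wildtype library, and the log2 fold change came to -0.70 ± 0.14 (SE, adjusted p = 3.83e-06 in DESeq2).

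Smaller falls were found for Ndufaf6 and Ndufaf8. Ndufaf6, needed for making the mitochondrially encoded subunit ND1 part of the enzyme, had counts of 172, 166, 164 and 169 in the wildtype and 159, 109, 119 and 110 in the knockout. Knockout replicate 1 lay just under the lowest wildtype library, and the log2 fold change came to -0.44 ± 0.17 (SE, adjusted p = 0.0344 in DESeq2). Ndufaf8, the partner of Ndufaf5, had 212, 262, 253 and 231 counts in the wildtype and 208, 182, 169 and 161 in the knockout. Knockout replicate 1 again lay next to the wildtype, and the log2 fold change came to -0.41 ± 0.15 (SE, adjusted p = 0.0186 in DESeq2). Its sign turned to 0.01 when scaled by total counts less mitochondrial rRNA.

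Ndufaf1, Ecsit, Acad9 and Tmem126b form the core of the intermediate assembly complex. Tmem126b was lower in every alternative fit, whereas the calls of Ndufaf1 and Ecsit were each lost in 8 of 15, so no count over these 4 genes is read against the 15.5% of all records that were lower. Ndufaf1 had a log2 fold change of -0.27 (adjusted p = 0.0244 in DESeq2), with 575 to 599 counts in the wildtype and 445 to 523 in the knockout. Ecsit had -0.25 (adjusted p = 0.0459 in DESeq2), with 1096 to 1209 counts against 884 to 1075. Scaled by total counts less mitochondrial rRNA, the signs of these values turned to 0.16 for Ndufaf1 and 0.18 for Ecsit. Acad9, an acyl-CoA dehydrogenase that doubles as an assembly factor, was the complex I factor with the highest wildtype level, 30.9 ± 3.32 TPM (SD, n = 4). Its counts were 2778, 2453, 2163 and 2615 in the wildtype and 2188, 2034, 2275 and 2134 in the knockout. The groups overlapped, since wildtype replicate 3 lay below knockout replicates 1 and 3, and the log2 fold change of -0.21 did not pass the test (adjusted p = 0.101 in DESeq2). The level and change of Acad9 are uncertain, because 18 other records hold stretches of at least 95% identity to its transcripts over at least 200 bases. The largest of these, Gm38356, Gm37701, Gm4117 and Gm13722, had mean normalised counts of 1584, 1300, 1118 and 797 in the wildtype, against 2502 for Acad9, and reads may be divided among them. The other 7 complex I factors had log2 fold changes between -0.34 for Ndufaf3 and 0.16 for Ndufaf2, and their groups overlapped. The value of Ndufaf2 is uncertain, because 8 other records hold stretches of at least 95% identity to it over at least 200 bases, and 1 of them, Patj, had 467 mean normalised counts in the wildtype against 144 for Ndufaf2. These 7 include Timmdc1, which works beside the intermediate assembly complex, the arginine-modifying enzymes Ndufaf5 and Ndufaf7, Nubpl, which supplies iron-sulfur clusters, and Foxred1.

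**Figure D2:**
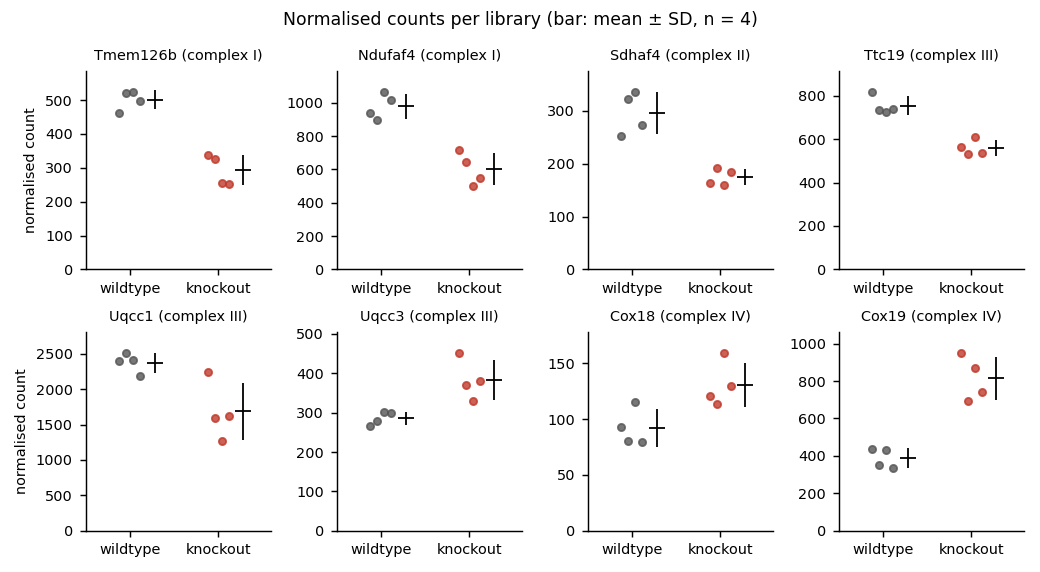
Normalised counts (y axis, from 0) of 8 called members in each library, with grey points for the wildtype, red points for the knockout and a bar for the mean ± SD (n = 4). Tmem126b, Ndufaf4, Sdhaf4 and Ttc19 have all knockout points below all wildtype points, Uqcc3 and Cox19 have all above, and in Uqcc1 and Cox18 the groups overlap.

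For complex II, Sdhaf4, which binds the flavin-carrying subunit SDHA before it meets SDHB, was the factor with both the largest change and the highest wildtype level, 15.9 ± 2.17 TPM (SD, n = 4). Its counts were 253, 322, 336 and 273 in the wildtype and 163, 191, 160 and 185 in the knockout. The groups were apart, with a log2 fold change of -0.76 ± 0.15 (SE, adjusted p = 5.95e-06 in DESeq2). The other 3 factors did not pass the test. Sdhaf1 and Sdhaf3, which aid the iron-sulfur subunit, had log2 fold changes of -0.26 and -0.17, and Sdhaf2, which attaches the flavin to SDHA, had -0.25 (adjusted p = 0.0871 in DESeq2). Knockout replicate 1, with 730 Sdhaf2 counts, lay inside the wildtype range of 702 to 761, and the other 3 knockouts lay between 546 and 610.

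Complex III factors fall into those for the Rieske iron-sulfur protein and those for cytochrome b, and calls were found in both. Ttc19, which clears fragments of the Rieske protein from the finished complex, had 817, 733, 724 and 740 counts in the wildtype and 561, 531, 609 and 536 in the knockout. Its knockout libraries were tightly grouped below the wildtype, and the log2 fold change came to -0.43 ± 0.10 (SE, adjusted p = 0.000117 in DESeq2). Bcs1l, the ATPase that moves the Rieske protein through the inner membrane, had 314, 275, 290 and 301 counts in the wildtype and 274, 205, 105 and 195 in the knockout. Knockout replicate 1 lay just under the wildtype and knockout replicate 3 far below the rest. The log2 fold change came to -0.60 ± 0.24 (SE, adjusted p = 0.043 in DESeq2), and -0.40 when knockout replicate 3 was left out (adjusted p = 0.0374 in DESeq2). The call of Bcs1l was lost in 8 of 15 alternatives, among them edgeR (adjusted p = 0.0594 in edgeR).

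Lyrm7, which holds the Rieske protein in the matrix, was also lowest in knockout replicate 3. Its counts were 164, 122, 208 and 178 in the wildtype and 170, 94.7, 47.7 and 137 in the knockout. Its log2 fold change, -0.58 ± 0.34, did not pass the test (SE, adjusted p = 0.178 in DESeq2), and it was -0.33 without knockout replicate 3. Of the cytochrome b factors, Uqcc1 had 2398, 2508, 2410 and 2180 counts in the wildtype and 2245, 1598, 1274 and 1623 in the knockout. The groups overlapped by knockout replicate 1, and the log2 fold change came to -0.49 ± 0.16 (SE, adjusted p = 0.0104 in DESeq2). Uqcc2, the most abundant complex III factor at 67.4 ± 2.16 TPM (SD, n = 4), had counts of 808, 781, 847 and 832 against 758, 703, 797 and 595. Knockout replicate 3 lay within the wildtype range, and the log2 fold change of -0.20 did not pass the test (adjusted p = 0.192 in DESeq2).

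Uqcc3 (chromosome 19 from 8880014 to 8880923, minus strand) was the only higher member outside complex IV. It acts in cytochrome b assembly after Uqcc1 and Uqcc2. Its counts were 266, 278, 301 and 298 in the wildtype and 451, 370, 330 and 381 in the knockout. Each knockout library was above each wildtype library, with a log2 fold change of 0.42 ± 0.13 (SE, adjusted p = 0.00689 in DESeq2). The call was lost in 2 of 15 alternatives, among them total-count scaling (highest adjusted p over the alternatives 0.511 in DESeq2).

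Of the complex IV factors Cox19 had the largest change of all members with counts in every library. Cox19 (chromosome 5 from 139336189 to 139351418, minus strand) is a small cysteine-rich protein of the intermembrane space linked to copper supply of the enzyme. Its counts were 437, 353, 431 and 337 in the wildtype and 949, 696, 870 and 742 in the knockout. The groups were far apart, and the fold was 2.09, a log2 fold change of 1.07 ± 0.15 (SE, adjusted p = 2.41e-11 in DESeq2). Cox18, an inner membrane protein that moves a part of the subunit COX2 across the membrane, had 92.9, 80.0, 115 and 79.1 counts in the wildtype and 121, 113, 159 and 130 in the knockout. Wildtype replicate 3 lay above knockout replicate 2, and the log2 fold change came to 0.51 ± 0.20 (SE, adjusted p = 0.0384 in DESeq2). With edgeR the adjusted p was 0.0506, and without knockout replicate 3 the log2 fold change was 0.40 (adjusted p = 0.133 in DESeq2).

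Coa7, a cysteine-rich protein of the intermembrane space, had a call whose direction depends on the correction for transcript length. Its normalised counts, which contain that correction, were 198, 263, 196 and 209 in the wildtype and 266, 381, 427 and 332 in the knockout. Its log2 fold change was 0.69 ± 0.18 (SE, adjusted p = 0.000797 in DESeq2). Its expected counts went the other way, with 370, 374, 429 and 446 in the wildtype and 221, 168, 166 and 187 in the knockout. The effective length that RSEM gave the gene was 3546, 2471, 3411 and 3082 bases in the wildtype and 1664, 914, 805 and 950 in the knockout. Without the length offset the log2 fold change was -0.88 (adjusted p = 9.68e-10 in DESeq2). RSEM computes this length from the shares it estimates for the gene's transcripts, and those shares were not analysed here. In the knockout libraries fewer fragments were assigned to the gene and its effective length was shorter. GENCODE M21, a later release than the M13 used for the counts, lists 5 Coa7 transcripts, of which 1 of 3714 bases codes for protein and the other 4 of 341 to 767 bases do not (chromosome 4 from 108328140 to 108341544, plus strand). The direction given for Coa7 rests on this effective length.

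**Figure D3:**
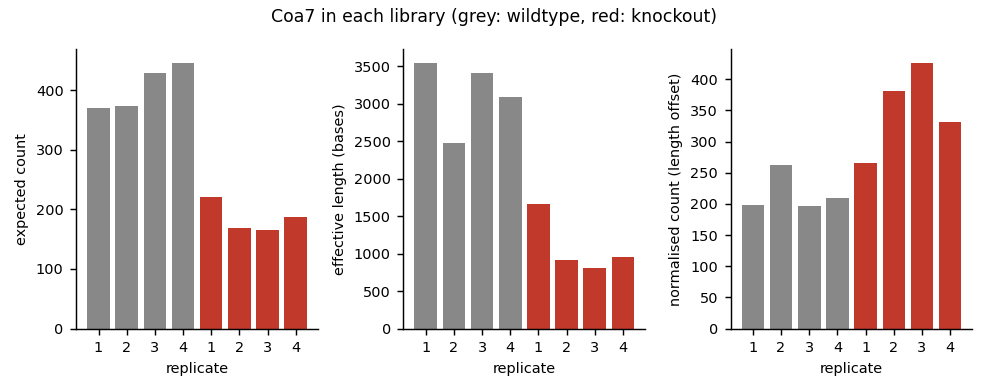
Coa7 in each of 8 libraries, as the RSEM expected count (left), the effective length in bases (middle) and the normalised count with the length offset (right), with grey bars for the wildtype and red bars for the knockout. The 4 knockout libraries are lower in the first 2 panels and higher in the third.

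The length offset mattered for few other members. It moved the log2 fold change of Coa7, Sdhaf3, Cox15 and Cox16 by more than 0.2 and that of 36 of 45 members by at most 0.1. Sdhaf3 had -0.17 with the offset and 0.10 without, neither past the test. Cox15, one of the enzymes of heme A synthesis, had -0.13 with the offset and -0.50 without (adjusted p = 0.000911 in DESeq2), and Cox16 had -0.16 and -0.40 (adjusted p = 0.00788 in DESeq2). Cox16 also shares 2130 exonic bases on the same strand with the record Gm20498. Without the offset Lyrm7 and Atpaf2 were called lower too.

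Falls were found for 2 complex IV factors. Cox20, a chaperone of newly made COX2, had 384, 351, 371 and 371 counts in the wildtype and 306, 282, 339 and 214 in the knockout. The groups did not overlap and knockout replicate 4 was lowest, with a log2 fold change of -0.38 ± 0.16 (SE, adjusted p = 0.0476 in DESeq2). Taco1, an activator of translation of the mitochondrial mRNA for COX1, had 428 to 519 counts in the wildtype and 334 to 448 in the knockout. Its log2 fold change was -0.33 (adjusted p = 0.039 in DESeq2). Scaled by total counts less mitochondrial rRNA, the signs turned to 0.04 for Cox20 and 0.09 for Taco1.

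Among the copper factors other than Cox19 none passed the test. Cox17, the copper carrier upstream of Sco1, Sco2 and Cox11, had the highest level of all members at 83.8 ± 3.21 TPM (SD, n = 4). Its counts were 929, 970, 987 and 933 in the wildtype and 1056, 1099, 1339 and 1042 in the knockout. The groups did not overlap, yet the log2 fold change of 0.25 did not pass the test (adjusted p = 0.0693 in DESeq2), and with total-count scaling it was -0.05. By total counts less mitochondrial rRNA it was 0.67 and called higher (adjusted p = 1.53e-13 in DESeq2). Without knockout replicate 3, the highest library, it was 0.16. Sco1, Sco2, Cox11 and Coa6 had log2 fold changes of -0.01, 0.33, 0.07 and -0.22. The value of Sco2 rested on knockout replicate 1, with 315 counts against 180 to 210 in the other knockouts, and was 0.12 without it. The heme A enzyme Cox10 had 0.11, and Surf1, whose loss in people impairs complex IV, had -0.03 with 355 to 371 counts in the wildtype and 325 to 399 in the knockout. Cox14 and Coa3, which accompany new COX1, had 0.08 and 0.11, and Coa5 and Pet100 had -0.13 and -0.20. Pet117 had no count in any wildtype library and normalised counts of 14.6, 0, 0 and 9.40 in the knockout. It shares 693 exonic bases on the same strand with Kat14, which had 383 normalised counts in the wildtype and 400 in the knockout, so no fold is given for it.

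The complex V factors showed no call. Tmem70, which aids assembly of the membrane ring, was the highest at 16.9 ± 1.14 TPM (SD, n = 4), with 850, 933, 1013 and 944 counts in the wildtype and 958, 731, 869 and 761 in the knockout. The groups overlapped, and the log2 fold change was -0.17 (adjusted p = 0.285 in DESeq2). Atpaf1 and Atpaf2, chaperones of the catalytic head, had -0.09 and -0.28. Atpaf1 has a copy of 100% identity over 843 bases, Gm14117, with 206 and 191 normalised counts in the wildtype and the knockout, and reads may be divided between them.

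The knockout libraries differed from each other in these genes. Knockout replicate 1 held the highest count of the 4 knockouts in 26 of 46 members, and knockout replicate 4 the lowest in 21. Of the 12 lower members 8 were highest in knockout replicate 1, and 5 each were lowest in knockout replicates 3 and 4. The median log2 difference of the complex I factors from the wildtype mean was -0.10, -0.28, -0.14 and -0.40 in knockout replicates 1 to 4. For complex III it was -0.09, -0.51, -0.60 and -0.47, and for complex IV it was 0.15, 0.00, 0.01 and -0.09. Knockout replicate 1 was thus nearest to the wildtype in complexes I, II, III and V.

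**Figure D4:**
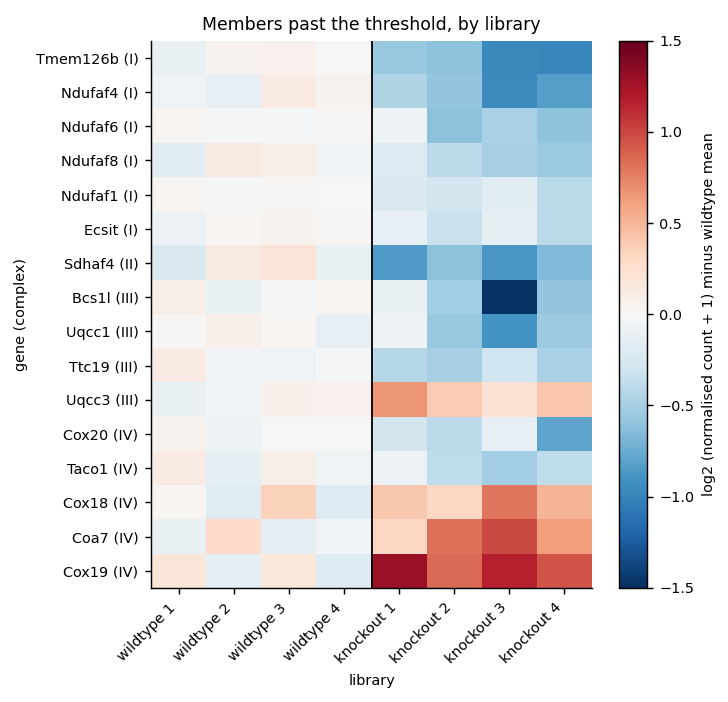
Heat map of the 16 called members (rows, complex in brackets) in the 8 libraries (columns), as log2 of the normalised count plus 1 minus the wildtype mean. The black line parts wildtype from knockout libraries, blue is below and red above the wildtype mean. Bcs1l and Uqcc1 are darkest blue in knockout replicate 3, and knockout replicate 1 is near white for Ndufaf6, Uqcc1 and Taco1.

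With 4 libraries a group many of these calls were close to the threshold. Of the 12 falls, 6 kept their call without wildtype replicate 1 or 2 or knockout replicate 2, and 5 without wildtype replicate 3 or 4 or knockout replicate 4. Without knockout replicate 1, 11 kept it and Ndufaf3, Sdhaf2 and Lyrm7 joined them, and without knockout replicate 3, 10 kept it and Foxred1 joined. Acad9 was called lower without wildtype replicate 3. Of all records 13.2, 13.7, 14 and 13.6% were lower without wildtype replicates 1 to 4, and 16.5, 14.3, 17.2 and 14.7% without knockout replicates 1 to 4. Cox19 and Tmem126b kept their call in all 15 alternative fits, and Ndufaf4, Sdhaf4, Ttc19 and Uqcc1 lost theirs only under total counts less mitochondrial rRNA. Uqcc3 lost its call in 2 of the 15, total-count scaling among them. Coa7 lost its call with total-count scaling, besides its reversal without the length offset. The calls of Ndufaf1, Ndufaf6, Ndufaf8, Ecsit, Bcs1l, Cox18, Cox20 and Taco1 were lost in 5 or more of them.

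Nuclear subunits of the same complexes were taken as the closest comparison. Of 82 subunits 46 were lower and 3 higher, with a median log2 fold change of -0.33, where 15.5% of all records were lower and 18.2% higher. Scaled by total counts 77 were lower and 3 higher, and by total counts less mitochondrial rRNA 9 were lower and 26 higher, with medians of -0.64 and 0.09. Over all records the shares were 29.6% lower and 9.64% higher in the first of these fits and 5.43% lower and 38.9% higher in the second. Assembly factors were less abundant, with a median wildtype level of 11.8 TPM against 210 TPM. In complex I 25 of 36 subunits were lower, with a median of -0.38, in complex II 3 of 4 with -0.42 and in complex III 5 of 9 with -0.33. In complex IV 5 of 15 were lower and 2 higher, with a median of -0.28, and in complex V 8 of 18 were lower and 1 higher, with -0.23. The higher gene of complex V is Atpif1, which encodes an inhibitor of the enzyme and was counted in this list although it is not a subunit. The subunit medians lay below the factor medians in complexes I, II, IV and V and above in complex III, and these differences were not tested.

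Subunit log2 fold changes ran from -0.81 to 0.24 in complex I, from -0.59 to -0.15 in complex II and from -0.79 to 0.02 in complex III, and 33 of 82 subunits were not called. The genes of this list named next are the called ones with the largest changes. Ndufv3, Ndufs1 and Ndufs6 of complex I had log2 fold changes of -0.81, -0.72 and -0.64. Sdhc, Sdha and Sdhb of complex II had -0.59, -0.50 and -0.34, and Uqcr11, Uqcrfs1 and Uqcrh of complex III had -0.79, -0.46 and -0.39. Sdhb and Uqcrh turned to 0.08 and 0.03 when totals without mitochondrial rRNA set the scale. In complex IV the muscle form Cox7a1 fell to a log2 fold change of -1.65 and Cox6a1, the form found outside heart and muscle, and Cox8a, the form of most tissues other than heart, rose to 1.45 and 1.04. In complex V Atp5k and Atp5e had -0.77 and -0.70, and Atpif1, the inhibitor of the enzyme, had 1.25.

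**Figure D5:**
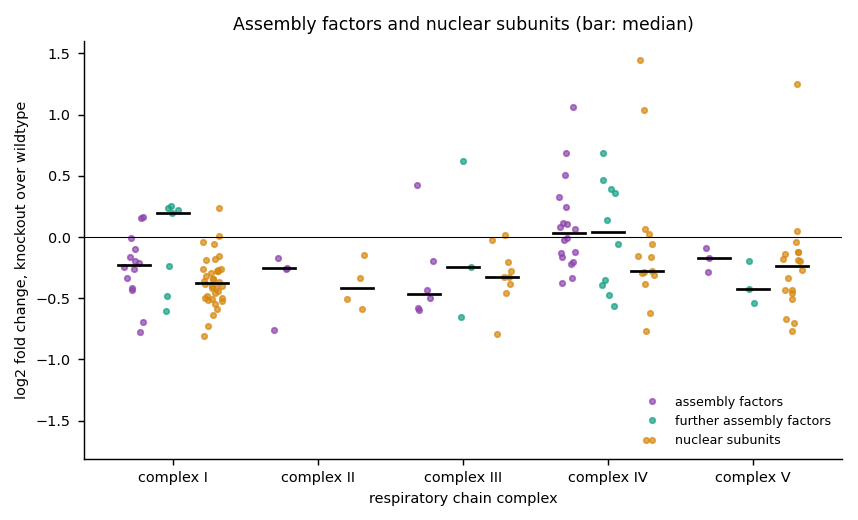
Log2 fold changes, knockout over wildtype (y axis), of the assembly factors, further assembly factors and nuclear subunits by complex (x axis), with 1 point per gene and a black bar at each median. The medians of subunits and factors are -0.38 and -0.23 in complex I and -0.33 and -0.46 in complex III. Pet117 and the 3 further factors that serve several complexes are left out.

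A second list held 26 matched further assembly factors, of which 11 were lower and 4 higher, with a median log2 fold change of -0.13, against 15.5% of all records lower and 18.2% higher. The split was 14 lower and 3 higher by total counts and 0 lower and 14 higher by total counts less mitochondrial rRNA. All records split into 29.6% lower and 9.64% higher in the former and 5.43% lower and 38.9% higher in the latter. The largest changes were the rises of Chchd4, at 0.89 (adjusted p = 2.63e-09 in DESeq2), and Gfer, at 0.76. Both encode parts of the disulfide relay that imports cysteine-rich proteins, such as Cox19, into the intermembrane space. Chchd4 had 312, 351, 374 and 320 counts in the wildtype and 664, 502, 689 and 655 in the knockout, with no overlap. Rab5if, a complex IV factor, had 0.69. Of 10 genes of copper supply 4 were higher and 1 lower, where 18.2% of all records were higher and 15.5% lower by the size factors used here. It was 2 higher and 3 lower by total counts and 8 higher and 0 lower by total counts less mitochondrial rRNA. The metal-binding metallothioneins Mt2 and Mt1 had log2 fold changes of 3.23 and 1.13, and the copper transporter gene Slc31a2 had -0.60.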

How the data were processed

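Total RNA of 8 mouse hearts was sequenced, and libraries were grouped by their titles. The authors made the deposited expected counts, TPM values and effective lengths (other values, in bases) with RSEM 1.2.31, aligning paired reads by bowtie2 in the reverse-stranded setting to GENCODE M13 with added mitochondrial sequences. A table of the authors' fold changes, p-values and mean counts was not used, nor was a table of normalised counts with 8 columns whose names match no label.

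Expected counts were rounded, and all records were fitted on genotype alone with DESeq2 1.42.0 (R 4.3.3), using its median-of-ratios size factors and an offset of effective lengths (lengths of 0 set to 1). P values were adjusted by Benjamini-Hochberg over the records tested in each fit, with a threshold of 0.05. In the main fit these were the 19959 records left after the filtering of DESeq2. Shares given for all records are shares of the records tested, which numbered 15792 to 20459 by fit. A normalised count is a count divided by size factor and length offset. Tried as alternatives were the edgeR 4.0.16 quasi-likelihood test (TMM), a fit that omitted the length offset, a minimum of 10 counts in 4 libraries, nuclear size factors, total counts as scale, total counts less mitochondrial rRNA, a replicate block and dropping each library in turn. Both tests were run on simulated data whose spread came from the wildtype libraries alone. Pairs of knockouts differed more, with a chi-square per degree of freedom of 14.7 to 52.9 against 4.65 to 10.0. The simulation therefore does not cover the spread of the knockouts. GENCODE M21 supplied symbols and GRCm38 positions (50339 of 50563 identifiers matched), and near-identical copies from blastn 2.17.0 at 95% identity over 200 bases. Log values used a pseudocount of 1.

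Every member past the threshold is named, with all libraries given for the 4 largest changes and the highest wildtype level of each complex, and up to 3 called genes are named per comparison list (per complex for subunits). Sdhaf2, Lyrm7, Cox15, Cox16, Pet117 and other members past this rule are named to account for the list. Values per library are also given for Lyrm7, Pet117 and Chchd4, which were chosen after their values were seen. The members, lists and motifs were chosen with earlier results of these data known. Each library came from a separate mouse. Pairs of replicates differed by more than sampling noise, with a chi-square per degree of freedom of 4.65 to 52.9. Depth was 35218541 to 47743376 counts.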

Additional observations from a re-analysis of the deposited data

Results flagged for a closer look

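A single library stood far from the other 3 of its group in 9 of the 136 groups examined, which is 6.62%, and chance gives about 1 in 20. Among the assembly factors, Ndufaf2 had 163.5 normalised counts in wildtype replicate 4 against 136.1 to 139.4. Timmdc1 had 466.6 in knockout replicate 4 against 547.2 to 556.9. Surf1 had 354.5 in wildtype replicate 4 against 369.5 to 371.2, and Coa5 had 2601 in wildtype replicate 3 against 2196 to 2253. None of these 4 genes passed the test between genotypes.

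Among genes named beside them, Cox8a had 3658 in knockout replicate 3 against 2620 to 2702, and Rab5if had 515.3 in wildtype replicate 3 against 448.9 to 450.9. Uqcr11 had 5143 in wildtype replicate 4 against 5279 to 5301, and Uqcrh had 6381 in wildtype replicate 1 against 6006 to 6066. Lrpprc had 504.3 in knockout replicate 2 against 597.4 to 605.4.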

How the results depend on the processing

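Of 12 falls and 4 rises among the assembly factors, edgeR kept 11 and 3, without Bcs1l and Cox18. With total-count scaling 32 members were lower and 1 higher, and without mitochondrial rRNA in the totals 1 was lower and 19 higher, while the median of all records was -0.30 and 0.43. The medians of complexes I to V were then -0.53, -0.56, -0.76, -0.22 and -0.48, and 0.19, 0.17, -0.0349, 0.50 and 0.25. Leaving out 1 library gave 5 to 14 members lower (10.9 to 30.4%, against 13.2 to 17.2% of all records) and 3 to 4 higher (6.52 to 8.7%, against 15.7 to 19.4%). The member share lower was below that of all records in the 6 of 8 such fits that kept knockout replicates 1 and 3. A replicate block gave 6 falls and 2 rises, of Cox19 and Coa7, without Cox18 and Uqcc3, or 13% lower and 4.35% higher against 14% and 15.8% of all records, so the surplus of lower members was lost under the block. Same-numbered libraries deviated from their group means with correlations of -0.01, -0.04, -0.07 and 0.07, and 1 of 4 numbers matched its own best. The labels do not say whether animals with the same number were paired, and these correlations cannot decide it. With totals that left out mitochondrial rRNA the sign turned for 25 members, 7 of which were then called higher (Atpaf1, Coa5, Cox15, Nubpl, Sco1, Surf1 and Timmdc1). Among the genes followed over all alternatives it turned for Acad9 (0.21), Ecsit (0.18), Ndufaf1 (0.16), Ndufaf8 (0.0123), Cox20 (0.0405), Taco1 (0.0925), Tmem70 (0.25), Uqcc2 (0.22), Sdhb (0.0803) and Uqcrh (0.0303), with total counts for Cox17 (-0.0549), and without the length offset for Coa7 (-0.88). Relative to the median gene all 16 called members kept their side in every alternative except Coa7 without the length offset. For the scalings by totals this follows from the construction, since a change of scale moves all genes by nearly the same amount. Of 615 values of single genes over the alternatives 522 kept direction and side of the threshold. Apart from the construction of the scalings and the length offset, the cause of these changes was not tested. Members with few counts, such as Cox18, limit the precision of their fold changes.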
